A study of Mus musculus with 21 samples.

Results

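The response of the intact mouse prostate to genistein was set against its response to 17β-estradiol. The contrast took genistein arrays minus their own vehicle arrays, and subtracted from it estradiol arrays minus their own vehicle arrays. It used 15 arrays out of 21 in the series and the 13481 genes with a probe called present (detection p-value under 0.05) on 3 or more arrays in both experiments. Transcripts of whole prostate tissue were read on Illumina bead arrays, where beads bearing the same oligonucleotide form a probe. All arrays came from FVB/N males aged 8 to 12 weeks with 1 copy of a luciferase transgene under androgen response elements (Slp-HRE2) joined to a thymidine kinase promoter. The genistein group (n = 3) received 300 µg per mouse per day, or 10 µg per g body weight, under the skin for 5 days. Its vehicle group (n = 3) received 0.1 ml of mineral oil with 2% dimethylsulfoxide. The estradiol group (n = 4) received 0.25 µg per mouse per day, or 10 µg per kg body weight, for 4 days. Its vehicle group (n = 5) received mineral oil with 0.5% ethanol. Prostates of all groups were removed 24 hours after the last injection. Compound, dose, days of treatment, vehicle, experiment and array chip all differ between the sides of the contrast and cannot be told apart in it. The estradiol arrays share chip 3 with their vehicle arrays 1 and 2. Vehicle arrays 3 to 5 of that experiment lie on chips without estradiol arrays. Whether single animals or pools were hybridized is not in the labels, so the p-values reflect spread between samples that could be partly technical.

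Genistein is a soy isoflavone that binds both estrogen receptors, with a preference for estrogen receptor beta, and at high concentrations inhibits tyrosine kinases. Estradiol is the main natural ligand of these receptors. Both receptors, like the androgen receptor, are transcription factors switched on by ligand. The prostate depends on androgen for its secretory epithelium, and estrogens act on it both through its own estrogen receptors and by suppressing gonadotropins and thereby testicular testosterone. The series title describes genistein as a tissue-specific modulator of the androgen receptor, and the contrast asks which transcripts genistein moved differently from a plain estrogen in males with testes.

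Values are normalized log2 intensities, in which a step of 1 is a doubling of signal, and a response is the difference of 2 group means on that scale. Before normalization the 6 arrays of the genistein experiment had medians of 101.1 to 109 and 42.3% to 44.9% of probes detected. The 9 arrays of the estradiol experiment had medians of 145 to 171.9 and 44.2% to 47.0% detected. The first principal component held 44.2% of the variance and separated the experiments. The second held 17.1% and set vehicle array 1 of the estradiol experiment, at 57.45, apart from the other 4 vehicle arrays of that group, at -22.29 to -10.02. List medians that move by more than 1.5 times or change sign without this array are also given without it. Secretory transcripts that define the tissue were present: the 14 measured prostate secretory genes averaged 11.51 to 13.05 on every array, and the prostate-specific transglutaminase Tgm4 read 14.25 or more on each array.

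No gene's response to genistein differed from its response to estradiol after adjustment over all genes (limma, Benjamini-Hochberg threshold 0.05). The 0 calls were 0% of the 13481 genes, and 760 genes, 5.64%, had an unadjusted p under 0.05. The gene nearest to a call was Aqp8, a water channel of epithelial membranes, with an adjusted p of 0.144 and a difference of 1.87 (SE 0.286, 95% interval 1.26 to 2.48). On its own, genistein raised Aqp8 by 1.72 log2 units (SE 0.221, limma adjusted p = 0.0189), or 3.30-fold, and Aqp8 was the only gene that passed for genistein (1 gene, 0.00742% of those tested). That call was lost without any of the 3 vehicle arrays or without genistein array 1 or 2, at log2 changes of 1.54 to 1.77 and adjusted p of 0.112 to 0.179, with a replicate block (adjusted p = 0.0804) and on chip 3 alone for estradiol (adjusted p = 0.065). No gene passed for estradiol (0 genes, 0%), with 994 genes, 7.37%, at an unadjusted p under 0.05, of which 3.66% were higher and 3.72% lower with estradiol. For genistein 605 genes, 4.49%, reached that p, 2.5% higher and 1.99% lower. Fewer cells of a type and less RNA per cell cannot be told apart in whole tissue, here or in any result that follows.

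Aqp8 read 7.86, 8.14 and 7.36 on the genistein arrays, against 5.99, 6.14 and 6.06 on their vehicle arrays. It read 6.05, 6.19, 6.65 and 6.69 on the estradiol arrays, against 6.37, 6.31, 6.71, 6.43 and 6.89 on theirs. The genistein arrays lay above every other array of the contrast, and estradiol and vehicle arrays overlapped, with an estradiol response of -0.15 (95% interval -0.53 to 0.24). A second Aqp8 probe gave a difference of 2.19 (SE 0.285). It read 7.86, 7.75 and 7.01 with genistein, against 5.82, 5.05 and 5.44 with vehicle. Estradiol arrays gave 6.27, 6.06, 6.44 and 6.12, against 6.34, 6.14, 6.25, 6.46 and 6.34 with vehicle. When all kept probes were tested singly the second probe passed for the difference (limma adjusted p = 0.0265) and the brightest did not (adjusted p = 0.0937). The difference also passed with the mean of both probes (2.03, adjusted p = 0.00881), with array weights (2.04, adjusted p = 0.0229) and without genistein array 3 (2.08, adjusted p = 0.039). With chips as blocks it was 1.67 (adjusted p = 0.713). In that setting the estradiol arrays were set against vehicle arrays 1 and 2 only, which share their chip. The call for Aqp8 thus changed with the probe summary, the weighting and 1 array, while its sign was positive under all 28 alternatives, at 0.99 to 2.17. Of the other 8 measured aquaporins, Aqp9 and Aqp2 had positive responses to both compounds. Aqp9, a channel for water and small solutes such as glycerol, had responses of 1.83 to genistein and 1.14 to estradiol. Aqp2, the water channel of the kidney collecting duct that vasopressin controls, had responses of 1.69 to genistein and 2.09 to estradiol. Neither passed in either response, and the median difference of the 9 aquaporins was -0.11.

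Behind Aqp8, the 4 genes with the lowest p in the positive direction were Memo1, Aurka, Fmo2 and Phka1, none of which passed. Memo1, a mediator of cell motility downstream of receptor tyrosine kinases, read 7.57, 7.73 and 7.58 with genistein, against 6.91, 7.08 and 7.08 with vehicle. It read 6.37, 6.80, 6.90 and 6.33 with estradiol, against 7.29, 6.96, 7.09, 7.06 and 7.19 with vehicle. All genistein arrays lay above their vehicle arrays and all estradiol arrays below theirs, for a difference of 1.12 (SE 0.204, limma adjusted p = 0.46). Aurka, a kinase of the mitotic spindle, read 6.08, 6.13 and 6.13 with genistein, against 5.47, 5.19 and 5.13 with vehicle, where it was detected on 1 of 3 arrays. Estradiol arrays gave 6.0, 5.91, 6.06 and 6.29, against 6.20, 6.05, 5.89, 6.21 and 6.26 with vehicle, and these groups overlapped. Its difference was 0.91 (SE 0.181, limma adjusted p = 0.585). Fmo2, a flavin-containing monooxygenase that oxidizes foreign compounds, had a genistein response of 0.53 and an estradiol response of -0.56, and all treated arrays lay outside the range of their vehicles in both experiments. It was detected on 2 of 3 vehicle arrays of the genistein experiment. Phka1, the muscle form of the regulatory alpha subunit of phosphorylase kinase, which starts glycogen breakdown, had an estradiol response of -0.82 and a genistein response of 0.33. Its 2 other probes gave differences of 0.034 and 0.13, far from the 1.15 of the brightest. Treated arrays that do not overlap their vehicle arrays were seen in 10.6% of all genes for genistein (5.5% above and 5.1% below) and in 2.75% for estradiol (1.49% above and 1.26% below). Genes picked by a low p for the difference, here and in the negative direction, favour groups that separate in opposite directions.

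In the negative direction the 5 genes of lowest p were Map11, Wdfy3, Mzf1, Farsa and Bod1l, with limma adjusted p of 0.585 for Map11 and 0.842 for the others. Map11, a microtubule-associated protein, read 10.22, 10.21 and 9.98 with genistein, against 10.59, 10.35 and 10.52 with vehicle. It read 9.96, 9.74, 9.85 and 10.02 with estradiol, against 9.49, 9.66, 9.42, 9.38 and 9.55 with vehicle. Both pairs of groups were apart, genistein below its vehicle and estradiol above, for a difference of -0.74 (SE 0.163). Wdfy3, a scaffold of selective autophagy, had a genistein response of -0.72 and an estradiol response of 0.26. Mzf1, a zinc-finger transcription factor, had responses of -0.58 and 0.16 and was detected on 1 of 3 genistein arrays. Farsa, the catalytic subunit of phenylalanyl-tRNA synthetase, had a genistein response of -0.50 and an estradiol response of 0.45. Estradiol array 2 read 7.63 for Farsa, beyond the other 3 at 7.38 to 7.42, and vehicle array 1 read 6.62, below the other 4 at 7.05 to 7.22. Bod1l, a protein that protects stalled replication forks, had responses of -0.63 and 0.35, with genistein arrays below and estradiol arrays above all their vehicle arrays, with 1 of 3 genistein arrays detected and a second probe at a difference of -0.36.

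**Figure D1:**
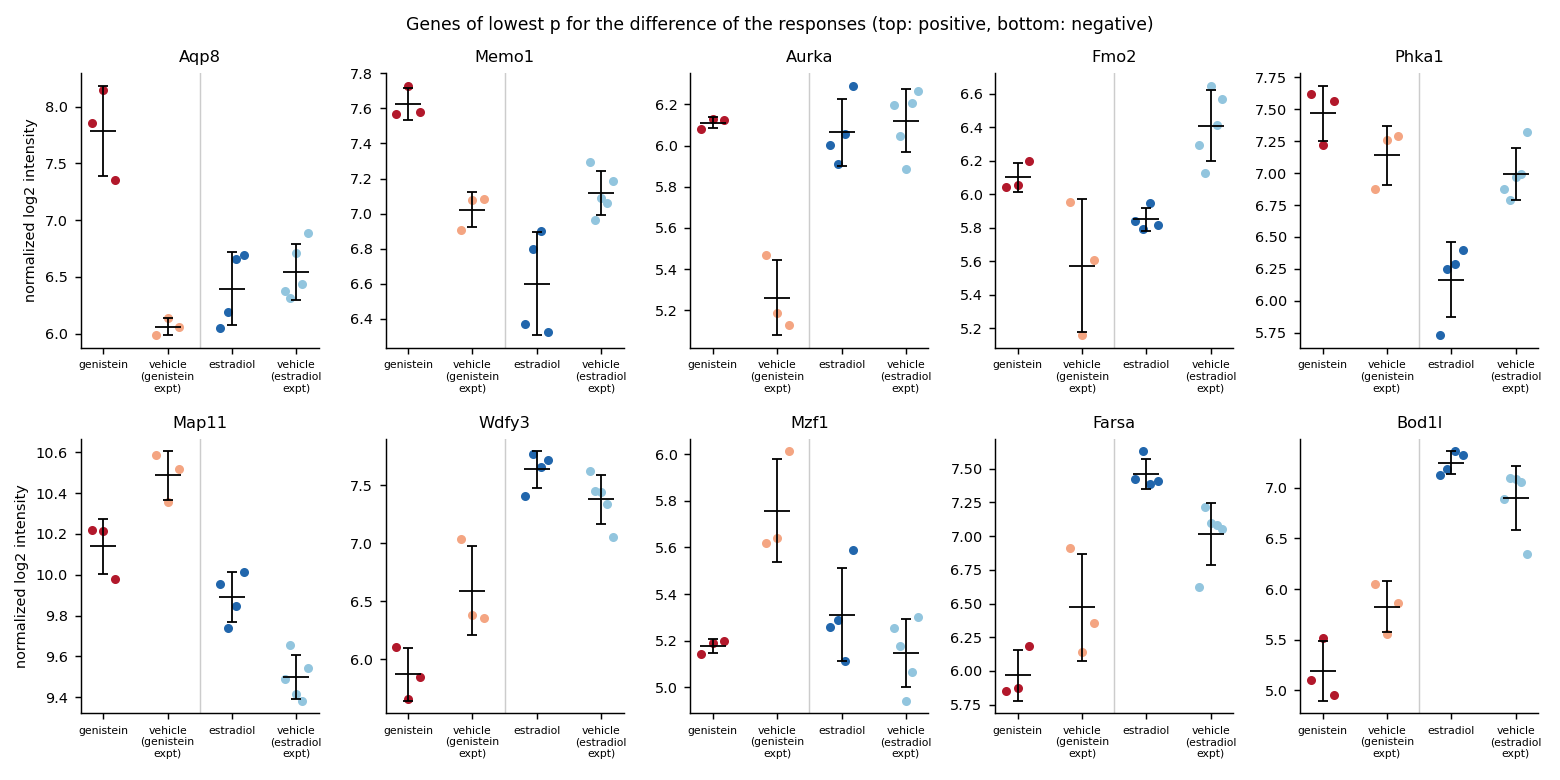
Normalized log2 intensity (vertical axes, each with its own range) of the 5 genes of lowest p in each direction, by group: genistein, its vehicle, estradiol, its vehicle. Points are arrays (n = 3, 3, 4 and 5) and black bars the mean ± SD. The genistein arrays of Aqp8 sit at 7.36 to 8.14, above all 12 other arrays, while Memo1, Fmo2, Map11 and Bod1l show groups that separate in opposite directions in the 2 experiments. The genes were picked by the difference, which favours such a pattern.

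Across the 13481 genes the responses were almost unrelated in size (Pearson r = 0.038, Spearman rho = -0.014, across genes, which are not independent replicates, from arrays that share no controls). An unadjusted p under 0.05 in both responses was found in 70 genes, 11.6% of the genistein list and 7.04% of the estradiol list. Over all genes 7.37% had such a p for estradiol and 4.49% for genistein. Of the 70 genes, 37 had the same direction and 33 opposite directions. Among the 760 genes with an unadjusted p under 0.05 for the difference, 221 had one for genistein alone, 292 for estradiol alone, 33 for both and 214 for neither. Responses of opposite sign made up 720 of the 760, or 94.7%, against 51.1% of all genes. Picking genes by the difference favours opposite signs, so that share is given as a description only. Most genes were bounded rather than resolved. The 95% interval of the difference lay within -1 to 1 for 72.3% of genes, and it reached a median of 0.56 to either side. For the genistein response alone that share was 89.1%, and for the estradiol response 93.2%.

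**Figure D2:**
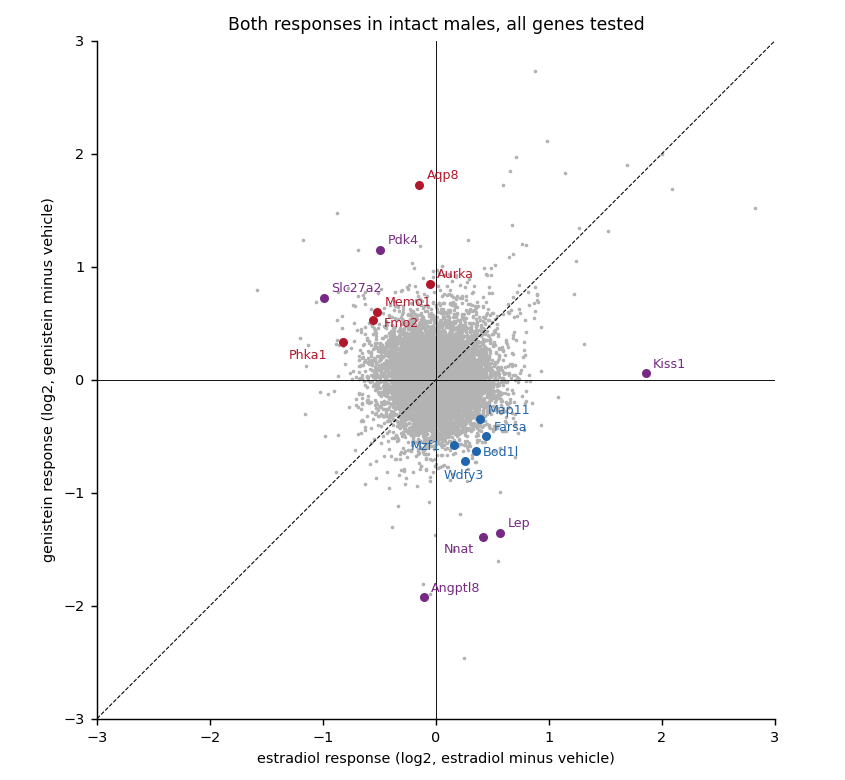
Genistein response (vertical axis, log2, genistein minus its vehicle) against estradiol response (horizontal axis, log2, estradiol minus its vehicle) for all 13481 genes (grey). The dashed line marks equal responses, red and blue points the 5 genes of lowest p in each direction, and purple points 6 genes with wide differences. The cloud is round about the origin (r = 0.038), and Aqp8 lies near the vertical axis at 1.72.

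Angptl8, Slc27a2, Lep and Nnat were among the genes with the widest differences. They and Kiss1, Defb43, Mup2, Svs1, Svs6 and Ceacam10 below were picked after their values were seen, as those with a symbol and a difference of 1.7 or more in size. None passed the adjusted test. Angptl8, a liver and fat hormone that restrains lipoprotein lipase, read 6.77, 6.34 and 6.76 with genistein, against 8.90, 9.03 and 7.73 with vehicle. On estradiol arrays Angptl8 was at 6.89, 4.91, 5.45 and 6.504, against 4.67, 5.96, 6.26, 6.70 and 6.65 with vehicle. The genistein arrays all lay under their vehicle arrays and the estradiol groups overlapped, for a difference of -1.82 (SE 0.711, 95% interval -3.33 to -0.30, unadjusted p = 0.0223). Slc27a2, a very-long-chain acyl-CoA synthetase, read 7.72, 8.38 and 8.78 with genistein, against 7.11, 8.37 and 7.22 with vehicle. It read 6.46, 6.94, 7.03 and 6.59 with estradiol, against 6.98, 8.08, 7.50, 8.12 and 8.04 with vehicle. The difference of 1.71 (SE 0.474, unadjusted p = 0.00264) came from an estradiol response of -0.99 and a genistein response of 0.73, and a second probe gave 1.60. Lep, which encodes leptin, the satiety hormone of fat cells, read 8.03, 8.59 and 8.67 with genistein, against 9.37, 10.90 and 9.08 with vehicle. With estradiol Lep read 10.997, 8.70, 10.39 and 10.74, against 9.43, 9.17, 10.04, 9.99 and 9.55 with vehicle. All genistein arrays were under their vehicle arrays, while 3 of 4 estradiol arrays were over theirs and 1 was under, for a difference of -1.92 (SE 0.684, unadjusted p = 0.0134). Nnat, an imprinted gene of brain and fat tissue, had a genistein response of -1.39 and an estradiol response of 0.42, a difference of -1.81 (SE 0.658), and its 2 other probes gave -0.82 and -0.59. The 7 measured adipocyte markers averaged 9.07 to 10.0 on genistein arrays, 9.55 to 10.51 on their vehicle arrays, 9.56 to 10.58 on estradiol arrays and 9.33 to 10.73 on theirs, and the part of fat tissue in the Lep, Nnat and Angptl8 values was not tested.

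Kiss1, the precursor of kisspeptin, which acts in the hypothalamus to control gonadotropin release, stood out by the uneven spread of its estradiol values. It read 9.35, 8.22, 5.25 and 7.12 with estradiol, against 6.85, 5.39, 5.75, 5.19 and 4.97 with vehicle. With genistein it read 5.62, 5.65 and 5.42, against 5.62, 5.35 and 5.54 with vehicle. Of the estradiol arrays 3 lay above every vehicle array and the fourth within their range, for an estradiol response of 1.86 (SE 0.598, 95% interval 0.58 to 3.13, limma adjusted p = 0.54). The genistein response was 0.059 and the difference -1.80 (SE 0.943, unadjusted p = 0.0764). Defb43, a beta-defensin, and Mup2, a major urinary protein that binds pheromones, had differences of 1.85 and 1.74 with SEs of 1.62 and 1.39. Defb43 read 4.83, 9.31 and 9.61 with genistein, against 4.86, 5.94 and 4.77 with vehicle, with 2 of 3 genistein arrays above all vehicle arrays. The differences of both genes moved with chips as blocks, to 0.54 for Defb43 and -0.18 for Mup2.

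The estradiol side was led by Setd3, a methyltransferase that modifies actin, with the lowest p for estradiol (limma adjusted p = 0.0808). Setd3 and the next gene with a symbol, Ptpre, were also picked after their values were seen. Setd3 read 9.24, 9.49 and 9.20 with genistein, against 9.31, 9.25 and 9.30 with vehicle. It read 7.52, 7.67, 7.72 and 7.73 with estradiol, against 8.26, 8.21, 8.51, 8.35 and 8.496 with vehicle. All estradiol arrays lay under their vehicle arrays while the genistein groups overlapped, giving an estradiol response of -0.71 (SE 0.103), a genistein response of 0.024 and a difference of 0.73 (SE 0.162, limma adjusted p = 0.585). Ptpre, a receptor-type tyrosine phosphatase, had an estradiol response of -0.68, a genistein response of -0.11 and a difference of 0.57 (SE 0.181), but its second probe gave 0.070. Tnfrsf10b, a death receptor and p53 target, had an estradiol response of -0.87, a genistein response of 0.032 and a difference of 0.90 (SE 0.284).

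**Figure D3:**
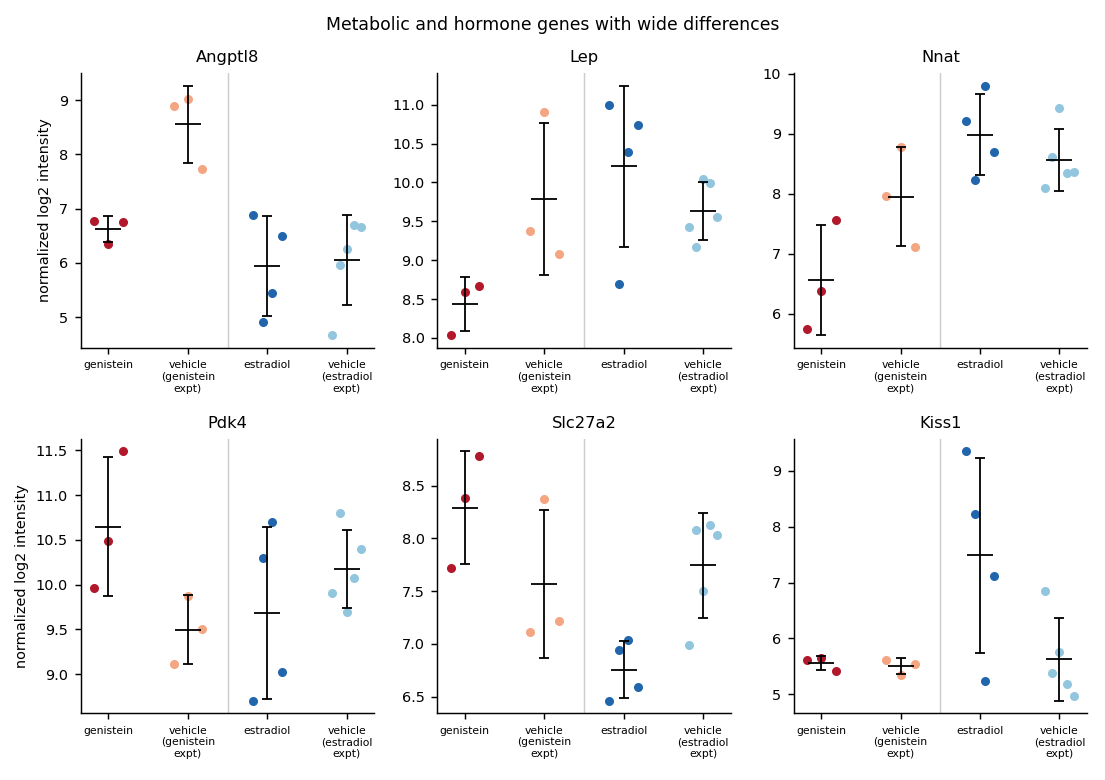
Normalized log2 intensity (vertical axes, each with its own range) of 6 genes of metabolism and hormones with wide differences, by group as genistein, its vehicle, estradiol and its vehicle. Points are arrays (n = 3, 3, 4 and 5) and black bars the mean ± SD. Genistein arrays of Angptl8 and Lep sit under all their vehicle arrays, estradiol arrays of Slc27a2 lie at 6.46 to 7.03, and those of Kiss1 spread over 5.25 to 9.35.

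None of the 15 measured genes known to respond to estrogen passed for the difference, for genistein or for estradiol. Their differences had a median of 0.045 against -0.0072 over all genes, 9 of 15 were above 0, and 7 had a 95% interval within -1 to 1. One of them, Ihh, had an unadjusted p under 0.05, where 3.26% of all genes did in the positive direction and 2.37% in the negative. Ihh, a hedgehog ligand that progesterone induces in the uterus, read 6.45, 5.28 and 6.57 with genistein, against 5.40, 5.27 and 5.28 with vehicle. The estradiol values were 5.44, 6.29, 5.85 and 5.49, against 5.59, 7.002, 6.32, 5.73 and 6.04 with vehicle. Of the genistein arrays 2 stood above the vehicle arrays and 1 among them, for a difference of 1.15 (SE 0.474, limma adjusted p = 0.849). Ihh was detected on 2 of 3 genistein arrays. Ramp3, an accessory protein of the calcitonin receptor-like receptor, had responses of 0.95 to genistein and 0.025 to estradiol. Ltf, which encodes lactoferrin, a classical estrogen target of the mouse uterus, had responses of -0.50 to genistein and -0.98 to estradiol. Greb1, an estrogen receptor cofactor and target, had responses of -0.29 and -0.44, and Stc2, a secreted glycoprotein, of -0.35 and 0.29. Squamous differentiation, known to follow strong estrogen exposure of the prostate, was represented by 5 genes with a median difference of 0.038, and 0 of the 5 had an interval within -1 to 1. Keratin genes Krt4 and Krt10 had differences of 0.70 and -0.47. With chips as blocks the squamous median was -0.72 and without vehicle array 1 it was 0.31.

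The receptors themselves showed no difference that passed. Esr1, estrogen receptor alpha, read 6.93, 7.43 and 7.22 with genistein, against 7.52, 6.54 and 6.85 with vehicle. It read 7.13, 7.07, 6.90 and 7.18 with estradiol, against 7.47, 6.99, 7.36, 7.37 and 6.93 with vehicle. The groups overlapped in both experiments, with a difference of 0.39 (95% interval -0.23 to 1.01). Esr2, estrogen receptor beta, read 6.17, 6.09 and 5.16 with genistein, against 6.13, 5.09 and 5.72 with vehicle. With estradiol it read 6.20, 5.56, 5.78 and 5.80, against 6.09, 5.80, 5.06, 4.75 and 5.27 with vehicle. It was near the detection limit, with 3 of 5 estradiol vehicle arrays detected, and its difference of -0.28 (95% interval -1.26 to 0.70) turned positive with chips as blocks, at 0.27, on chip 3 alone, at 0.27, and without genistein array 3, at 0.041. Esrrb, an orphan receptor related to the estrogen receptors, had a difference of 0.37 (SE 0.443). The 7 measured receptors and cofactors had a median difference of 0.069. The progesterone receptor gene Pgr was not measured here.

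Androgen receptor targets and prostate secretory genes held no gene that passed. Of 16 measured androgen receptor targets, 10 had a difference above 0, the median was 0.039 and 11 had an interval within -1 to 1. The genistein median was -0.065 and the estradiol median -0.10. Fkbp5, a chaperone of steroid receptors induced by androgen, had responses of -0.14 to genistein and -0.20 to estradiol. Rhou, a small GTPase, had the lowest p of the list, with 0.30 and -0.28 and a difference of 0.59 (SE 0.207, limma adjusted p = 0.842). Abcc4, an export pump, had a difference of 0.31. Without vehicle array 1 the list's median was -0.067. Of the 14 measured secretory genes 9 had a difference above 0, with a median of 0.12, an unadjusted p under 0.05 in 1 (5.64% over all genes) and an interval within -1 to 1 in 6. Pbsn, which encodes probasin, the androgen-dependent secreted protein of the mouse prostate, read 10.45, 11.03 and 10.17 with genistein, against 10.89, 9.95 and 10.71 with vehicle. It read 9.04, 9.17, 8.63 and 10.04 with estradiol, against 9.13, 9.38, 10.18, 9.93 and 10.25 with vehicle. Both pairs of groups overlapped, with responses of 0.034 and -0.55 and a difference of 0.59 (95% interval -0.45 to 1.63). With chips as blocks the estradiol response of Pbsn was -0.038 and its difference 0.072. Pate4, a secreted peptide of the Ly-6 family, read 14.95, 15.12 and 15.15 with genistein, against 14.86, 14.81 and 14.91 with vehicle. Its estradiol values were 14.45, 14.32, 13.85 and 14.34, against 14.81, 14.54, 14.63, 14.50 and 14.66 with vehicle. Its groups did not overlap in either experiment, and its difference was 0.60 (SE 0.193, unadjusted p = 0.00744, limma adjusted p = 0.842). Tgm4, which forms the copulatory plug, had responses of -0.048 and -0.34, and Spink5, a protease inhibitor, of 0.12 and -1.15. The 8 steroid-metabolizing enzymes had a median difference of 0.068, with the lowest p for Cyp7b1, which hydroxylates oxysterols and androgen metabolites, at 0.48, and Hsd17b12, a fatty acid elongation and steroid enzyme, at 0.50.

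Among lists of metabolism, targets of the peroxisome proliferator-activated receptors (PPAR), which govern fatty acid use, had the highest median difference of the 23 pathway lists, 0.40. Of 15 measured targets 11 were above 0, 2 had an unadjusted p under 0.05, 0 passed and 3 had an interval within -1 to 1. Over all genes 48.8% were above 0 and 5.64% had such a p. The genistein median was 0.17 and the estradiol median -0.28. Pdk4, the kinase that shuts pyruvate dehydrogenase when fat is burned, read 9.97, 10.48 and 11.49 with genistein, against 9.12, 9.88 and 9.50 with vehicle. Estradiol arrays of Pdk4 read 8.70, 10.30, 10.70 and 9.03, against 9.90, 10.80, 9.70, 10.07 and 10.40 with vehicle. All genistein arrays lay above their vehicle arrays, and 2 estradiol arrays lay below and 2 among theirs, for a difference of 1.64 (SE 0.633, 95% interval 0.29 to 2.99). Hadhb, a subunit of the mitochondrial fatty acid oxidation complex, had a difference of 0.75, while Hadha, its partner subunit, had -0.089. Ehhadh of peroxisomal oxidation had 0.78 and Cpt1b, the muscle carnitine palmitoyltransferase, 0.72. Skeletal muscle markers also had a positive median difference. Of 12 such markers 11 had a difference above 0, with a median of 0.35, and Myh1, a fast myosin heavy chain, had 1.40 (SE 0.651). Myh1 read 11.66, 11.34 and 11.72 with genistein, against 9.94, 11.22 and 11.22 with vehicle, and 9.71, 11.35, 10.99 and 11.23 with estradiol, against 10.05, 11.72, 11.83, 11.95 and 11.70 with vehicle. The 3 low values came from vehicle array 1 of the genistein experiment, estradiol array 1 and vehicle array 1 of the estradiol experiment. The mean level of the muscle markers ran from 13.43 to 13.93 with genistein, 12.88 to 13.74 with its vehicle, 12.40 to 13.60 with estradiol and 12.71 to 13.81 with its vehicle. With chips as blocks the muscle median was 0.065 and the PPAR median 0.37, and without vehicle array 1 they were 0.58 and 0.50. The part of muscle in the PPAR values was not tested.

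The 17 cholesterol synthesis genes had a median difference of -0.12, with 6 above 0 and 15 with an interval within -1 to 1. Over all genes 48.8% were above 0, 72.3% had such an interval and 6838 of 13481 had a genistein response above 0. For the cholesterol genes the genistein median was -0.21, with 2 of 17 above 0, and the estradiol median -0.070. Their mean level was 8.12, 8.26 and 8.25 with genistein, against 8.40, 8.52 and 8.29 with vehicle, and 8.38, 8.08, 8.24 and 8.27 with estradiol, against 8.41, 8.35, 8.21, 8.31 and 8.38 with vehicle. The genistein arrays lay below their vehicle arrays and the estradiol groups overlapped. Nsdhl, a sterol dehydrogenase of that pathway, read 7.89, 8.04 and 8.12 with genistein, against 8.44, 8.49 and 8.40 with vehicle. Estradiol values were 7.57, 7.45, 7.42 and 7.64 with estradiol, against 7.61, 7.47, 7.03, 7.60 and 7.49 with vehicle. The genistein arrays lay below their vehicle arrays and the estradiol groups overlapped, for a difference of -0.51 (SE 0.192, unadjusted p = 0.0193), although its 3 other probes gave -0.24 to -0.13. Stard4, a cholesterol transfer protein, had a difference of -0.47. The 16 fatty acid synthesis genes had a median of -0.099, with Elovl6, a fatty acid elongase, at 1.08 (SE 0.636) and Elovl1 at -0.29. The 6 polyamine genes had a median of 0.020, and all 6 had an interval within -1 to 1. Smox, spermine oxidase, had 0.16, and Oaz2, an inhibitor of polyamine synthesis, had -0.10. Other Smox probes gave -0.26 to 0.18.

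Cell cycle genes had 15 of 18 differences above 0 and a median of 0.33, with 3 at an unadjusted p under 0.05 and 0 that passed, beside 48.8% above 0 and 5.64% at that p over all genes. Their genistein median was 0.25 and their estradiol median -0.082. Their mean level was 6.71, 6.48 and 6.87 with genistein, against 6.46, 6.36 and 6.51 with vehicle. It was 6.66, 6.60, 6.70 and 6.55 with estradiol, against 6.77, 6.78, 6.49, 6.81 and 6.75 with vehicle. Genistein and vehicle ranges overlapped by a small margin, and the estradiol range lay inside that of its vehicle. Cdk1, the kinase that drives entry into mitosis, had responses of 0.74 to genistein and -0.084 to estradiol. Mcm6, a subunit of the replicative helicase, read 6.29, 6.23 and 7.52 with genistein, against 6.15, 6.49 and 6.19 with vehicle. Estradiol arrays stood at 7.17, 7.23, 6.97 and 7.24, against 7.93, 7.72, 7.41, 7.37 and 8.10 with vehicle. Genistein array 3 alone was above its vehicle arrays, while all estradiol arrays were below theirs, for a difference of 0.96 (SE 0.368). Foxm1, a transcription factor of mitotic genes, had a difference of -0.082. Of 16 p53 targets 8 were above 0, with a median of -0.0049, an interval within -1 to 1 in 14 and Ccng1, cyclin G1, at 0.48.

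Genes of protein folding in the endoplasmic reticulum had a median difference of -0.21, and 4 of 19 were above 0, beside 48.8% over all genes. Hspa5, the main chaperone of that compartment, stood against the list. Its only kept probe read well below the mean of the 19 genes, which was 10.58 to 11.62 over the arrays. It read 7.84, 8.07 and 7.70 with genistein, against 7.66, 6.79 and 6.80 with vehicle. It read 5.84, 6.10, 5.88 and 6.32 with estradiol, against 6.66, 6.08, 6.60, 5.95 and 6.44 with vehicle. The genistein arrays lay above their vehicle arrays, by a small margin for 1 of them, and the difference was 1.10 (SE 0.317, unadjusted p = 0.0036). Other members went the other way without an unadjusted p under 0.05, such as the co-chaperones Dnajc3 at -0.61 and Sdf2l1 at -0.50 and the lectin chaperone Calr at -0.39. With chips as blocks the list's median was 0.077. The 15 genes of the aryl hydrocarbon receptor and NRF2, sensors of foreign compounds and oxidants, had a median of 0.11, which was -0.12 with chips as blocks and 0.35 without vehicle array 1. Cyp1b1, which hydroxylates estradiol, read 8.67, 8.82 and 9.30 with genistein, against 7.87, 8.37 and 8.22 with vehicle. With estradiol it read 7.99, 8.37, 8.34 and 7.96, against 8.41, 7.35, 8.38, 9.15 and 8.36 with vehicle. Its genistein arrays were above their vehicle arrays and its estradiol arrays among theirs, for a difference of 0.95 (SE 0.422, unadjusted p = 0.0403), or 0.50 with chips as blocks. Nqo1, a quinone reductase, had 0.52.

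Signalling lists gave medians between -0.16 and 0.17. The 18 immediate early genes had a median of -0.16, with Egr1 at -0.68 and Klf4, a zinc-finger factor, at 0.51. The difference of Klf4 was -0.0021 with chips as blocks, and its 2 other probes gave -0.28 and -0.097. The 13 circadian clock genes had a median of -0.015. Among them Nr1d2, a repressor of the clock, read 8.84, 8.78 and 9.11 with genistein, against 8.66, 8.62 and 8.55 with vehicle, and had a difference of 0.47 (SE 0.185). Arntl, a core activator of the clock, had 0.56. The 13 glucocorticoid-inducible genes had a median of -0.025, with Errfi1, an inhibitor of epidermal growth factor receptor signalling, at 0.35 and Cebpd at 0.25. The 9 genes of prolactin and STAT5 signalling had a median of 0.17, with the kinase Jak2 at 0.19 and the inhibitor Socs3 at -0.32. The 13 genes of the insulin-like growth factor axis had a median of -0.13, with the receptor substrate Irs1 at -0.55 and the binding protein Igfbp6 at -0.51. The 20 interferon response genes had a median of 0.098, with the lowest p for the antiviral Oas2, at 0.56, and Irf9, at 0.33. A second Irf9 probe gave -0.17. The 14 chemokines and cytokines had a median of -0.085, with Ccl11, which attracts eosinophils, at -0.57 and Cxcl13, which attracts B cells, at 0.68. The 14 extracellular matrix genes had a median of 0.027, with an interval within -1 to 1 in 13, Lox, a collagen cross-linker, at 0.30 and Col18a1 at -0.27.

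**Figure D4:**
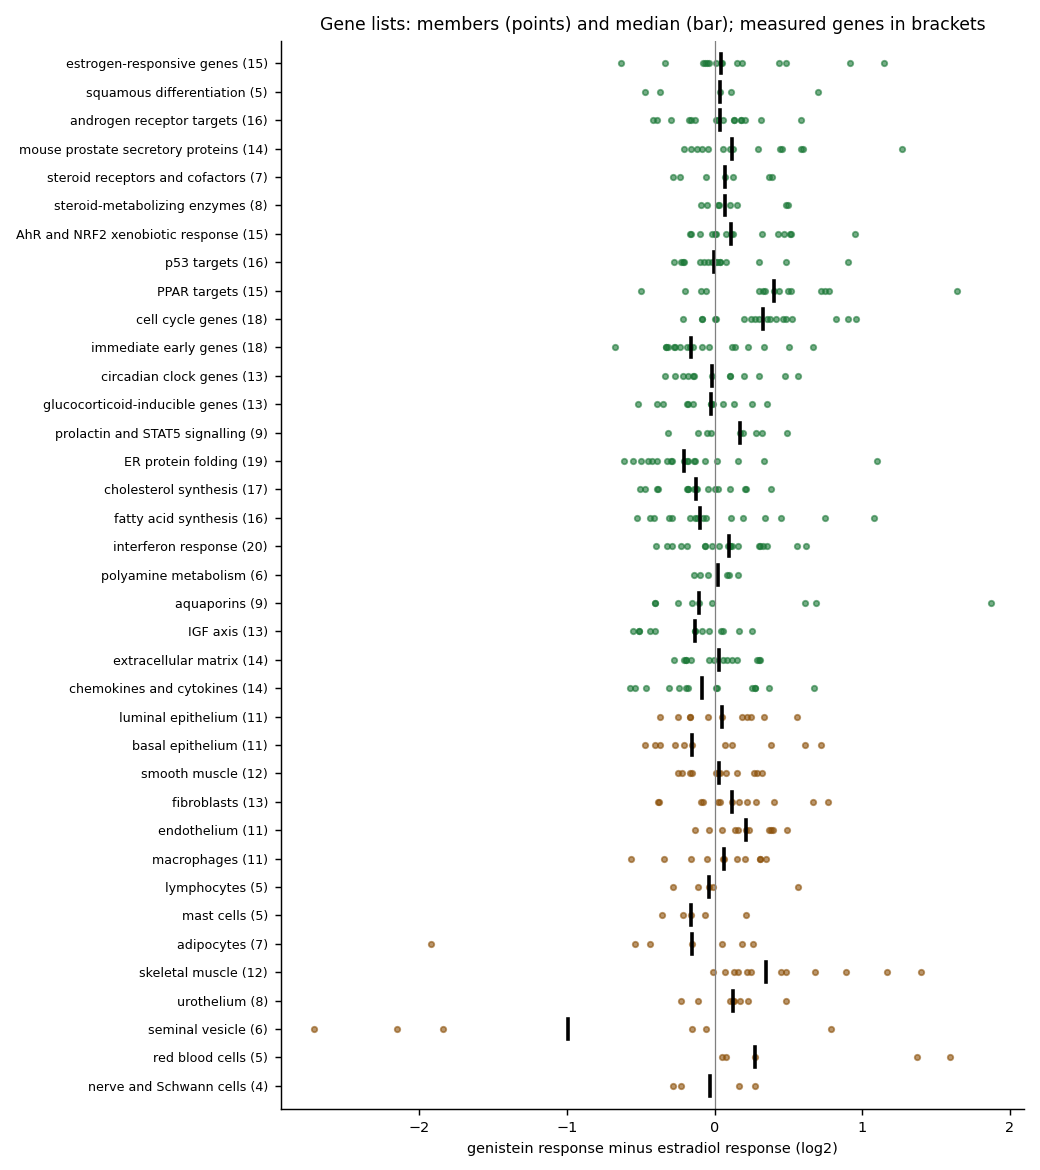
Difference of the responses (horizontal axis, log2, genistein response minus estradiol response) for every measured member of 23 pathway lists (green) and 14 cell type lists (brown), 1 list per row with its number of measured genes in brackets. Black bars are medians. PPAR targets (0.40) and cell cycle genes (0.33) lie to the right among pathways, and the seminal vesicle genes spread from -2.71 to 0.79.

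Markers of neighbouring tissue varied widely between arrays. Seminal vesicle genes, which mark tissue that adjoins the prostate, had the lowest median, -0.99, over 6 genes. Svs1, a seminal vesicle secretory protein, had the widest negative difference of all genes, -2.71, with an interval of -7.99 to 2.57. It read 9.38, 5.22 and 6.11 with genistein, against 12.88, 4.75 and 10.48 with vehicle. With estradiol it read 10.43, 13.92, 10.89 and 13.46, against 14.50, 13.42, 12.10, 11.83 and 7.81 with vehicle. The range within every group exceeded both responses, and no group lay apart from its vehicle. Svs6 and Ceacam10, which is also a seminal vesicle product, had -2.15 and -1.84 with SEs of 1.82 and 1.53. The mean of the 6 genes ran from 10.15 to 11.24 with genistein, 10.00 to 12.76 with its vehicle, 11.48 to 13.43 with estradiol and 10.44 to 13.61 with its vehicle. Aqp8 was high on all 3 genistein arrays, where these markers were at 11.24, 10.15 and 10.35, and low on the vehicle arrays of that experiment, where they were at 12.76, 10.00 and 11.74. The part of seminal vesicle tissue in the results was not tested.

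The 11 markers of luminal epithelium averaged 10.06 to 10.20 with genistein, 10.15 to 10.22 with its vehicle, 9.91 to 10.02 with estradiol and 9.83 to 10.23 with its vehicle, and all 11 had a difference with an interval within -1 to 1, at a median of 0.051. Cd24a, a surface protein of luminal cells and among these markers, was not well above background on any of the 4 estradiol arrays. Its estradiol response is thus a bound on the group means, at least 1.06-fold lower, while its interval for the difference takes those values as measured. Vehicle array 2, at 4.87, read below estradiol array 1, at 4.99, and the response did not pass (limma adjusted p = 0.54). The 11 basal markers had a median of -0.15, with Dst, a hemidesmosome linker, at 0.72, though its 3 other probes gave 0.0037 to 0.18. Stromal lists had medians of 0.032 for smooth muscle (12 genes, Smtn at 0.27), 0.12 for fibroblasts (13 genes, the complement factor C7 at 0.67) and 0.21 for endothelium (11 genes, the angiopoietin receptor Tek at 0.49). Immune lists had medians of 0.062 for macrophages (11 genes, Aif1 at -0.57), -0.038 for lymphocytes (5 genes, Cd79b at 0.57) and -0.16 for mast cells (5 genes, Mcpt4 at -0.36). A second Aif1 probe gave 0.16. The 8 urothelial markers had a median of 0.13, with Upk1b at 0.48, and -0.66 with chips as blocks. The 7 adipocyte markers had -0.15, and the 4 nerve and Schwann cell markers -0.032, with Pmp22 at 0.27. A second Pmp22 probe gave -0.080. The 5 measured genes of red blood cells had a median of 0.28, led by Alas2, the first enzyme of heme synthesis in red cells, at 1.60 (SE 0.76), and -0.15 with chips as blocks.

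Many list medians depended on single arrays of the genistein experiment, on how chips were treated or on vehicle array 1 of the estradiol experiment. Chips as blocks left only vehicle arrays 1 and 2 to set against estradiol, so vehicle array 1 weighed more there. Among pathways, the medians without vehicle array 1 were 0.19 for secretory genes, 0.19 for steroid-metabolizing enzymes, -0.018 for receptors and cofactors, -0.058 for p53 targets, -0.35 for protein folding and -0.20 for cholesterol synthesis. For signalling they were -0.077 for immediate early genes, -0.0061 for clock genes, 0.012 for glucocorticoid-inducible genes, 0.083 for prolactin and STAT5 signalling, 0.012 for the interferon response and 0.11 for chemokines and cytokines. Polyamine genes had -0.075, aquaporins -0.023 and extracellular matrix genes -0.0091. Among cell types they were 0.030 for luminal and -0.056 for basal epithelium, 0.18 for fibroblasts, 0.32 for macrophages, 0.0041 for lymphocytes, 0.0092 for mast cells, 0.010 for adipocytes, 0.44 for urothelium, 0.51 for red blood cells and 0.0011 for nerve and Schwann cells. With chips as blocks the sign turned for p53 targets (0.099), clock genes (0.20), prolactin and STAT5 signalling (-0.057), fatty acid synthesis (0.0059) and extracellular matrix (-0.11). It also turned for basal epithelium (0.10), smooth muscle (-0.083), fibroblasts (-0.098) and macrophages (-0.14). Without a change of sign, that setting gave -0.72 for mast cells, -0.59 for adipocytes, -0.14 for lymphocytes, -0.23 for seminal vesicle genes and 0.031 for endothelium. No list held a member that passed for the difference with chips as blocks or without vehicle array 1. Without vehicle array 1 of the genistein experiment the medians were 0.0012 for endothelium and 0.062 for skeletal muscle. They were -0.26 for urothelium and for squamous differentiation. PPAR targets had 0.16 without genistein array 3 and 0.69 without vehicle array 2 of the genistein experiment.

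**Figure D5:**
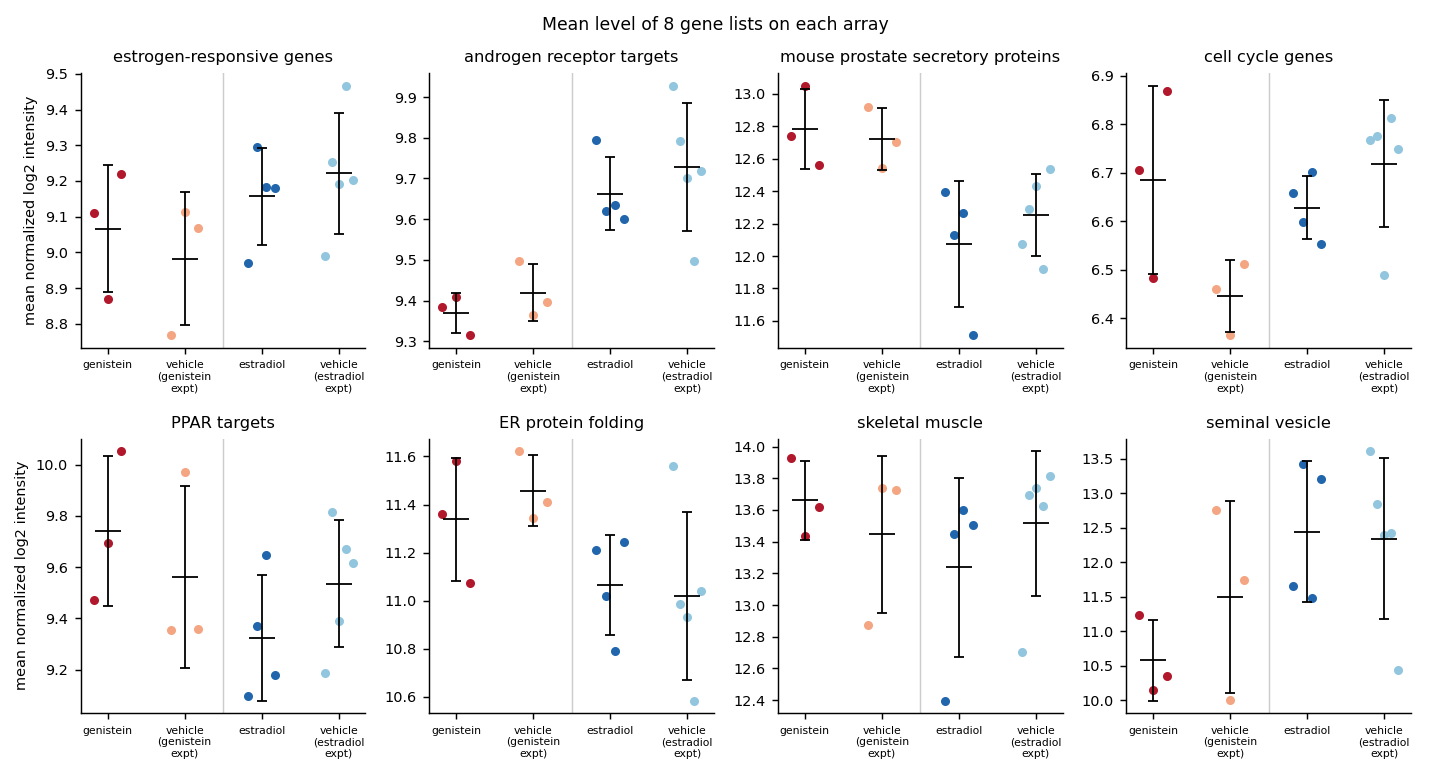
Mean normalized log2 intensity (vertical axes, each with its own range) of 8 gene lists on each array, by group as genistein, its vehicle, estradiol and its vehicle. Points are arrays (n = 3, 3, 4 and 5) and black bars the mean ± SD. Groups overlap in all 8 lists within each experiment, and the seminal vesicle genes range from 10.00 to 13.61.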

How the data were processed

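The authors deposited, per the file headers, 2 tables of average bead intensity, with a detection p-value beside each intensity for 45259 probes per array. The values are linear and were not normalized. The submitters' processing notes name BeadStudio and no version of it. A table of the authors' processed intensity served as an alternative. In R 4.3.3, limma 3.58.1 (neqc, offset 16) corrected background from the detection p-values, quantile-normalized the 15 arrays together and took log2. Of 19154 kept probes the brightest per symbol was used, leaving 13481 genes, 10894 with a symbol and 2587 probes under their own identifier. Symbols came from the platform annotation (34872 probes with 1 symbol, 18 with several, 10369 with none). lmFit and eBayes fitted 4 group means (residual degrees of freedom 11, two-sided, Benjamini-Hochberg over all genes). The test was checked on simulated data. In the genistein experiment 766 kept probes had exactly 3 detected arrays, in the other 221, and 1010 probes missed by 1 array. No 2 arrays were identical. Same-numbered arrays did not deviate together in every pair (correlations -0.30 to 0.38), so numbers were not taken as pairs. Chips: genistein and its vehicle share chip 2, estradiol with vehicles 1 and 2 chip 3, vehicles 3 and 4 chip 4, vehicle 5 chip 5.

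The genes, the 37 lists and the tests were chosen with earlier results of these data known. Named genes were the 5 of lowest p in each direction where fewer than 5 passed, those that passed in either response, the 2 of lowest p per pathway list and 1 per cell type list, and Esr1, Esr2, Pgr, Pbsn and Aqp8, besides an item not reported here. Genes added after seeing values for a wide difference or a low estradiol p are marked so. These list members were also named outside the rules: Aqp2, Aqp9, Ramp3, Ltf, Greb1, Fkbp5, Spink5, Hadha, Ehhadh, Cpt1b, Cdk1, Foxm1, Dnajc3 and Calr. Their differences were not recomputed under the alternatives given below. The number of arrays limits the precision.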

Additional observations from a re-analysis of the deposited data

Results flagged for a closer look

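An array is given here where its gap to the nearest other array of its group exceeded Dixon's 95% limit. Only the estradiol arrays and their vehicle arrays were examined. The groups of the genistein experiment, with n = 3 each, were not. Of 168 groups of arrays examined, each for a single gene or array measure, 13 did so, and chance flags about 1 in 20. Vehicle array 1 of the estradiol experiment gave 5 of them: Farsa at 6.62 (others 7.05 to 7.22), the keratin Krt4 at 7.90 (others 8.90 to 9.28), Myh1 at 10.0 (others 11.70 to 11.95), its mean correlation with its group at 0.951 (others 0.972 to 0.979) and its second principal component at 57.45 (others -22.29 to -10.02). In the same group, Bod1l read 6.35 on array 5 (others 6.88 to 7.09), Nsdhl 7.03 on array 3 (others 7.47 to 7.61) and Cd24a 4.87 on array 2 (others 5.19 to 5.25). Among the estradiol arrays, Farsa read 7.63 on array 2 (others 7.38 to 7.42) and Tek 8.74 on array 1 (others 9.22 to 9.26). Estradiol array 3 read 8.16 for Cyp7b1 (others 7.85 to 7.89), 7.39 for Aif1 (others 7.07 to 7.12) and 10.1 for Upk1b (others 10.65 to 10.73). Without vehicle array 1 the differences of Farsa, Krt4 and Myh1 were -0.85, 0.94 and 1.75, against -0.95, 0.70 and 1.40 with it.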

How the results depend on the processing

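The counts of genes that passed were recomputed under 28 alternatives, each named gene under the 23 to 28 that gave it a value, and list medians under 27; correlations and overlaps between the responses were not recomputed. The count of genes that passed for the difference was 0, and 1 (Aqp8) with probes of a gene averaged, with all kept probes, with array weights, and without genistein array 3, so that leaving out single arrays gave 0 to 1. For genistein the count was 1, but 2 with all kept probes (both Aqp8) and with the authors' processed values (Aqp8 and Aurka), 0 on chip 3 alone, and 0 to 1 when single arrays were left out, with 0 without any of the 3 vehicle arrays or genistein arrays 1 and 2. For estradiol it was 0, but 1 (Setd3) without a filter, with the stricter filter and with all 21 arrays, and 6 with array weights (Setd3, Ptpre, Gpn2 and 3 probes without a symbol); leaving out single arrays gave 0. With replicate number as a block the counts were 0, 0 and 0 for the difference, genistein and estradiol. Of 2212 values of 80 named genes, 9 changed sign, in 5 genes: Esr2 (0.27 with chips as blocks and on chip 3 alone, -0.57 to 0.041 when single arrays were left out, positive without genistein array 3), Klf4 (-0.0021 and -0.0023), Mup2 (-0.18 in both chip settings), Mcpt4 (-0.63 to 0.091, positive without genistein array 1) and Smox (-0.042 with its probes averaged). The median differences of PPAR targets (0.16 to 0.69), cell cycle genes (0.16 to 0.45), skeletal muscle (0.061 to 0.58) and seminal vesicle (-1.47 to -0.11) kept their sign; those of estrogen-responsive genes (-0.034 to 0.12), androgen receptor targets (-0.068 to 0.15) and protein folding (-0.36 to 0.077) did not. The cause was not tested, except that fewer arrays entered when arrays were left out. Signal near background on 1 or more arrays limits Esr2, Mzf1, Bod1l, Aurka, Cd24a, Esrrb, Irs1, Cd79b and Defb43. It also limits Fmo2, Ihh, Oas2, Ceacam10, Svs1, Angptl8 and Kiss1.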
